A study of Mus musculus with 6 samples.

Results

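The levels of 8 neutrophil genes were compared between livers of 2 genotypes after hepatic ischemia-reperfusion (I/R). Camp, Ngp and Ltf encode proteins that are stored in neutrophil granules, and Csf3r, Cxcr1, Cxcr2, Il1r2 and Mmp8 are genes of mature neutrophils. These 8 were taken by name from the 3201 genes with values. They had been picked because the granule genes were lower and the mature neutrophil genes higher in livers with the deletion, so that difference is described here without a test.

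RNA-seq was performed on whole livers of 3 Fgf18 f/f mice, which carry loxP-flanked alleles of the growth factor gene Fgf18, and 3 Fgf18 △HSC mice, in which Cre recombinase under the GFAP promoter deletes that gene in hepatic stellate cells (HSCs). GFAP is also a gene of glial cells, so Cre from this promoter is not limited to the liver. All mice were on the C57BL/6 background, and the study describes them as male. The portal branches to the left and middle lobes were clamped for 1 h in both genotypes and the livers were reperfused for 6 h. The study's methods do not state which lobes were sequenced. The Fgf18 f/f livers are called control livers here. Their genotype comes from the study's methods, since the genotype label of these libraries reads IR. Ages were not given in the sources used here, and livers without I/R were not analysed here. Levels of Fgf18 itself were not analysed here, and the genotype labels could not be checked against the deleted gene.

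Neutrophils are made in the bone marrow, and the contents of their granules are transcribed there in a set order, in precursors that have not yet left for the blood. Mature neutrophils in the circulation carry the finished granule proteins with little of their mRNA, and instead transcribe receptors for growth factors, chemokines and cytokines. After reperfusion of an ischemic liver, neutrophils are drawn into the sinusoids by chemokines that act on CXCR2.

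The deposited table holds only genes that already differed between these genotypes in the authors' own comparison, so a count of differing genes from it says nothing about genes left out. Levels are given in TPM, in which reads are corrected for the length of the gene and every library has an equal sum. Whole reads, within 0.02 reads, could be recovered for 92.2% to 92.6% of a library's values under 5000 reads. For a gene 1 kb long, each read added 0.0374 to 0.0555 TPM in control livers and 0.0482 to 0.0655 TPM after the deletion. These ranges overlapped between the genotypes, but the total depth of the libraries is unknown. Cyp2e1 and Glul, the hepatocyte markers with values, were at 569 and 142 TPM or more on average in either genotype. Of the neutrophil markers Ly6g, S100a8, S100a9, Mpo, Elane, Retnlg, Csf3r and Cxcr2, only Csf3r and Cxcr2 had values, and the others were not analysed here.

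The 3 granule genes lie close together. Camp (ENSMUSG00000038357, chr9:109847379-109849617 of GRCm38, minus strand), Ngp (ENSMUSG00000032484, chr9:110419747-110423012, plus strand) and Ltf (ENSMUSG00000032496, chr9:111019271-111042767, plus strand) fall within 1.20 Mb of chromosome 9, with 570 kb between Camp and Ngp and 596 kb between Ngp and Ltf. This stretch holds 54 annotated genes, 31 of them protein coding. Besides the granule genes, Cdc25a and Tmie had values there, and both were higher in Fgf18 △HSC livers, with log2 differences of 0.92 and 1.18. Mmp8 (ENSMUSG00000005800, chr9:7558456-7568485, plus strand) is on the same chromosome but far from them. Cxcr2 (ENSMUSG00000026180, chr1:74153989-74161246, plus strand) and Cxcr1 (ENSMUSG00000048480, chr1:74191785-74194631, minus strand) are neighbours, 30.5 kb apart with no other gene with values between them. Il1r2 (ENSMUSG00000026073, chr1:40074079-40125231, plus strand) overlaps the antisense gene Gm16894 and the unconfirmed gene model Gm37347, so its reads could be shared with them. Csf3r (ENSMUSG00000028859) is at chr4:126024550-126044440 on the plus strand.

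Promoter sequence is shown for the 3 granule genes and for Mmp8, because Mmp8 also encodes a granule protein but differed in the opposite direction. C/EBP factors, of which C/EBP epsilon is needed to make the later granules, and PU.1 are the factors best known for driving granulocyte genes. Windows of 250 bases before the RefSeq start were searched for C/EBP, written TTNNGCAA (TTGCNNAA on the other strand), and for PU.1, written GAGGAA, which reads TTCCTC on the other strand. The lines below give the bases ahead of the annotated transcript starts, 5′ to 3′ on the strand of the gene, from RefSeq on GRCm38.p6, at chr9:109849618-109849706 for Camp, chr9:110419558-110419746 for Ngp, chr9:111019042-111019270 for Ltf and chr9:7558179-7558428 for Mmp8. Capitals mark the C/EBP matches.
Camp: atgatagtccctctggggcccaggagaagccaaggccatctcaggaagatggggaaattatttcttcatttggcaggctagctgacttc
Ngp: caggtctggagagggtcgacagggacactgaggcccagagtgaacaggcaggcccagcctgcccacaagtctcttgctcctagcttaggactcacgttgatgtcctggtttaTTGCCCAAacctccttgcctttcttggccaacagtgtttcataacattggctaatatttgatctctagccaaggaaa
Ltf: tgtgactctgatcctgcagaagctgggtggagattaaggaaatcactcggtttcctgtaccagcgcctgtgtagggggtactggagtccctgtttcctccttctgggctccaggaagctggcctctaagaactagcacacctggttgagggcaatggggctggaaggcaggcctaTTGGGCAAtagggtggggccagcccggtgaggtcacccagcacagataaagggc
Mmp8: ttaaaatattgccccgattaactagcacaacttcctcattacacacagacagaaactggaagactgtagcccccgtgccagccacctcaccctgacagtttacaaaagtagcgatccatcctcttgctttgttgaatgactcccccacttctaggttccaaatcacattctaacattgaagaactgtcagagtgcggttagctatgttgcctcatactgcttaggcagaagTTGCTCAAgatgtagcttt
The C/EBP letters occurred in the windows of Ngp (138 and 11 bases before the start, the nearer of them outside the printed bases), Ltf (75 bases before) and Mmp8 (19 bases before). They were not in the windows of Camp, Csf3r, Cxcr1, Cxcr2 or Il1r2. Among all 32851 promoter windows, 9.56% held them. The PU.1 letters occurred in the windows of Ltf, Mmp8, Csf3r and Cxcr2, against 23.3% of all windows. A match of letters is a description and not a binding site, and Mmp8 shared the C/EBP letters with Ngp and Ltf while its difference had the opposite sign.

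The granule genes were lower in every Fgf18 △HSC liver than in any control liver. Ngp, which encodes neutrophilic granule protein, was the highest of the 3, at 10.4, 8.48 and 8.59 TPM in control livers 1, 2 and 3. In the Fgf18 △HSC livers it was at 0.947, 0.536 and 0.455 TPM. The means were 9.16 ± 1.09 and 0.646 ± 0.264 TPM (SD, n = 3 each), a ratio of 14.2 in favour of the control livers and a difference of -3.68 in log2(TPM + 0.1). The reads behind them were 341, 231 and 189 against 24, 10 and 11, so the low level in each Fgf18 △HSC liver rests on at least 10 reads.

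Camp, the gene of the antimicrobial cathelicidin peptide, was at 1.43, 1.30 and 1.61 TPM in control livers. It was at 0.0636, 0.0863 and 0.133 TPM in Fgf18 △HSC livers. The Fgf18 △HSC values stand for 1, 1 and 2 reads, against 29, 22 and 22 reads in the control livers, so the size of the difference is poorly determined. The ratio of the summed reads, corrected for the TPM that a read adds in each library, was 15.2. Its exact 95% interval of 5.68 to 57.2 covers counting error only. On the log2(TPM + 0.1) scale the difference was -3.0.

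Ltf, the gene of the iron-binding protein lactoferrin, was at 1.27, 0.924 and 1.13 TPM in control livers and at 0.140, 0.0569 and 0.117 TPM in Fgf18 △HSC livers. The groups did not overlap, on 117, 71 and 70 reads against 10, 3 and 8. The means were 1.11 ± 0.172 and 0.105 ± 0.0428 TPM (SD, n = 3 each), with a log2 difference of -2.57 and a ratio of summed reads of 10.2 (exact 95% interval 6.55 to 16.8, counting error only). In liver tissue, fewer cells that carry these transcripts and less of the transcript in each cell cannot be told apart.

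The mature neutrophil genes went the other way, with more spread among the Fgf18 △HSC livers, and in Csf3r, Cxcr2, Il1r2 and Mmp8 by smaller factors. Mmp8, the neutrophil collagenase, had the largest ratio of the 4 with ample reads. It was at 3.02, 3.20 and 3.27 TPM in control livers and at 14.9, 8.50 and 19.2 TPM in Fgf18 △HSC livers. The means were 3.16 ± 0.131 and 14.2 ± 5.36 TPM (SD, n = 3 each), a 4.48-fold higher level and a log2 difference of 2.05. As a granule protein by location, Mmp8 differed in sign from Camp, Ngp and Ltf.

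Csf3r, the receptor for granulocyte colony-stimulating factor (G-CSF), was at 5.38, 5.31 and 3.92 TPM in control livers and at 9.76, 6.82 and 17.0 TPM in Fgf18 △HSC livers. The means of 4.87 ± 0.823 and 11.2 ± 5.26 TPM (SD, n = 3 each) were 2.30-fold apart, with a log2 difference of 1.10. The highest control liver stood only a little below the lowest Fgf18 △HSC liver.

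Cxcr2 is the receptor through which neutrophils follow CXCL1 and CXCL2. Its level was nearly the same in the control livers, at 2.30, 2.30 and 2.24 TPM, and widely spread in the Fgf18 △HSC livers, at 5.96, 2.98 and 10.1 TPM. The means were 2.28 ± 0.0349 and 6.35 ± 3.58 TPM (SD, n = 3 each), 2.79-fold apart, with a log2 difference of 1.27. Cxcr1, its paralog, was barely detected. It had 1, 0 and 0 reads in the control livers and 11, 1 and 10 reads in Fgf18 △HSC livers, which is 0.0251, 0 and 0 TPM against 0.356, 0.0439 and 0.339 TPM. The ratio of its summed reads was 26.4, with an exact 95% interval of 4.27 to 1091 (counting error only), so no size can be given for it, and Fgf18 △HSC liver 2 with its single read was no different from control liver 1 in reads.

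Il1r2, the decoy receptor that binds interleukin-1 without signaling, was at 5.81, 5.74 and 4.92 TPM in control livers and at 12.5, 8.23 and 22.5 TPM in Fgf18 △HSC livers. The means were 5.49 ± 0.498 and 14.4 ± 7.31 TPM (SD, n = 3 each), 2.63-fold apart, with a log2 difference of 1.26. All 8 genes had groups that did not overlap, as did 96.3% of all 3201 genes, and since both were selected on this contrast nothing is read from it.

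**Figure D1:**
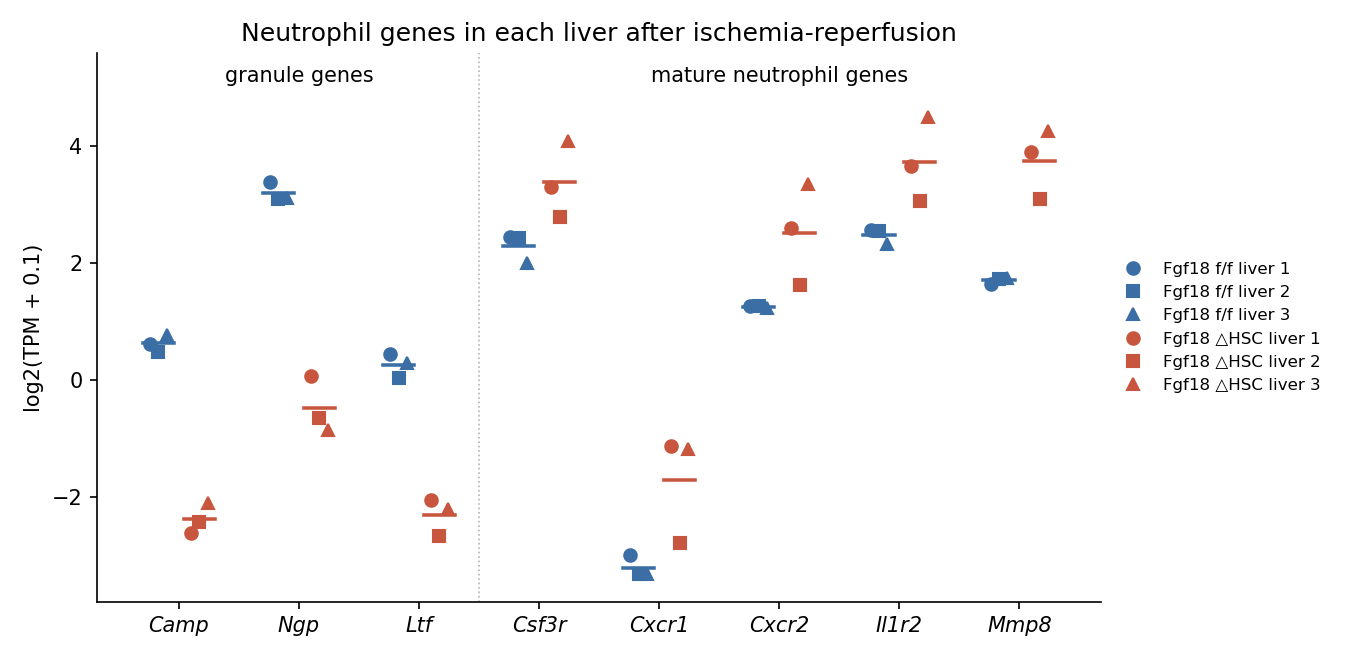
Level of the 8 genes in each liver as log2(TPM + 0.1) (vertical axis), with control (Fgf18 f/f) livers in blue, Fgf18 △HSC livers in red, symbols for livers 1 to 3 and a bar at each group mean. The granule genes are lower in red and the mature neutrophil genes higher, and the red points of Csf3r, Cxcr2, Il1r2 and Mmp8 are spread more widely than the blue ones.

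These differences changed the order of the 8 genes. In control livers Ngp had the highest mean, at 9.16 TPM, above Il1r2 and Csf3r, whose values overlapped each other, then Mmp8, Cxcr2, Camp, Ltf and Cxcr1, each separate from the next. In Fgf18 △HSC livers Il1r2, Mmp8, Csf3r and Cxcr2 came first, each overlapping the next, and Ngp followed them. Cxcr1, Ltf and Camp came last, and their values overlapped too.

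A ratio within a liver does not depend on how the livers are scaled to each other, so the other genes were also set against Csf3r of the same liver. Ngp stood at 1.94, 1.60 and 2.19 times the Csf3r level in control livers and at 0.0970, 0.0785 and 0.0267 times in Fgf18 △HSC livers. The means of 1.91 ± 0.297 and 0.0674 ± 0.0364 (SD, n = 3 each) were 28.3-fold apart. For Camp and Ltf the ratio to Csf3r was 34.1-fold and 23.6-fold lower in Fgf18 △HSC livers. In those livers Camp had 1, 1 and 2 reads and Ltf 10, 3 and 8, so the sizes of these folds are poorly determined.
Among the mature neutrophil genes with ample reads the ratios were closer. Il1r2 stood at 1.08, 1.08 and 1.25 times Csf3r in control livers and at 1.28, 1.21 and 1.32 times in Fgf18 △HSC livers, so the groups overlapped. Cxcr2 overlapped as well, at 0.428, 0.433 and 0.571 against 0.611, 0.438 and 0.594. Mmp8 did not, at 0.561, 0.603 and 0.835 times Csf3r against 1.52, 1.25 and 1.12, and its mean ratio was 1.95-fold higher in Fgf18 △HSC livers. Cxcr1 stood at 0.00465, 0 and 0 times Csf3r in control livers and at 0.0364, 0.00644 and 0.0199 times in Fgf18 △HSC livers, without overlap, but on at most 11 reads a liver.

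**Figure D2:**
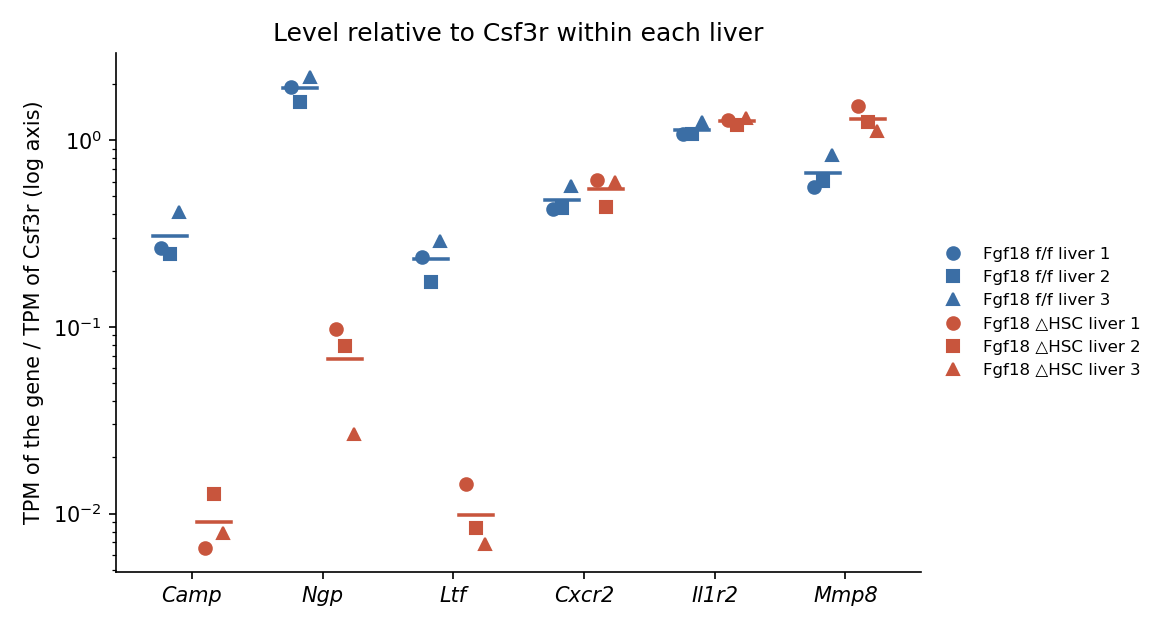
TPM of each gene divided by TPM of Csf3r in the same liver (log axis), with control (Fgf18 f/f) livers in blue, Fgf18 △HSC livers in red and a bar at each group mean. Camp, Ngp and Ltf lie 23.6-fold to 34.1-fold apart between the genotypes, Cxcr2 and Il1r2 overlap, and Mmp8 is 1.95-fold apart. The red points of Camp rest on 1, 1 and 2 reads and those of Ltf on 10, 3 and 8. Cxcr1, with few reads, is not drawn.

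As a single measure, the mean log2(TPM + 0.1) of the 3 granule genes minus that of the 5 mature neutrophil genes was 0.50, 0.28 and 0.60 in control livers. It was -4.00, -3.47 and -4.72 in Fgf18 △HSC livers. The group means were 0.46 ± 0.16 and -4.07 ± 0.63 (SD, n = 3 each), a difference of -4.52, made up of -3.09 in the granule genes and 1.44 in the mature neutrophil genes. With Mmp8 counted among the granule genes the difference was -3.09.
Scaling mattered for the mature neutrophil genes taken alone. In an alternative all 6 livers were rescaled to equal medians of the ratio of a liver's genes to their mean over the livers. Only genes with values could enter it, all selected as differing between the genotypes, and 2083 of the 3201 were higher in Fgf18 △HSC livers. By construction it takes out part of that difference, so it cannot tell a scaling error from a real rise. It shifted the log2 differences of all genes by a median of -0.74. The differences were then 0.23 for Csf3r, 0.42 for Cxcr2, 0.39 for Il1r2, 1.28 for Cxcr1 and 1.19 for Mmp8, and -3.72, -4.52 and -3.29 for Camp, Ngp and Ltf. Each kept its sign, and the difference between the gene groups was -4.54.

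The 3 Fgf18 △HSC livers differed among themselves in the mature neutrophil genes. Csf3r, Cxcr2, Il1r2 and Mmp8 were each highest in liver 3 and lowest in liver 2, with a range of 1.31, 1.73, 1.44 and 1.16 on the log2(TPM + 0.1) scale, whereas the median range of all 3201 genes over these livers was 0.49. Cxcr1, with 11, 1 and 10 reads, was lowest in liver 2 but highest in liver 1. None of the 3 granule genes had this order: Camp was highest in liver 3, by 2 reads against 1 and 1, and Ngp and Ltf in liver 1.
The rule had not used the order within a genotype, so other genes can be set beside it. Of 17 other neutrophil surface receptors with values, 16 (94.1%) had the order liver 3, liver 1, liver 2, against 759 of all 3201 genes (23.7%) and 582 of the 2083 genes that were higher in Fgf18 △HSC livers (27.9%). The same order held in 28 of 37 other neutrophil genes (75.7%), in 4 of 12 monocyte and macrophage genes and in 4 of 7 erythroid genes. It was not limited to receptors or to genes of neutrophils, since 6 of 8 attractant and growth factor genes had it. Of these, Cxcl2 and Il1a are also counted among the other neutrophil genes. Of 9 later granule genes 4 had it (44.4%). The 2 of 7 granulocyte transcription factors (28.6%) were near the shares of all genes and of the higher ones. Over all genes, liver 3 stood 0.09 above liver 2 on the log2 scale by the median, and over the other receptors 0.84. Without liver 3 the mean difference of the mature neutrophil genes from control livers was 1.11 in place of 1.44, and without liver 2 it was 1.83, while that of the granule genes was -3.09 and -2.99.

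**Figure D3:**
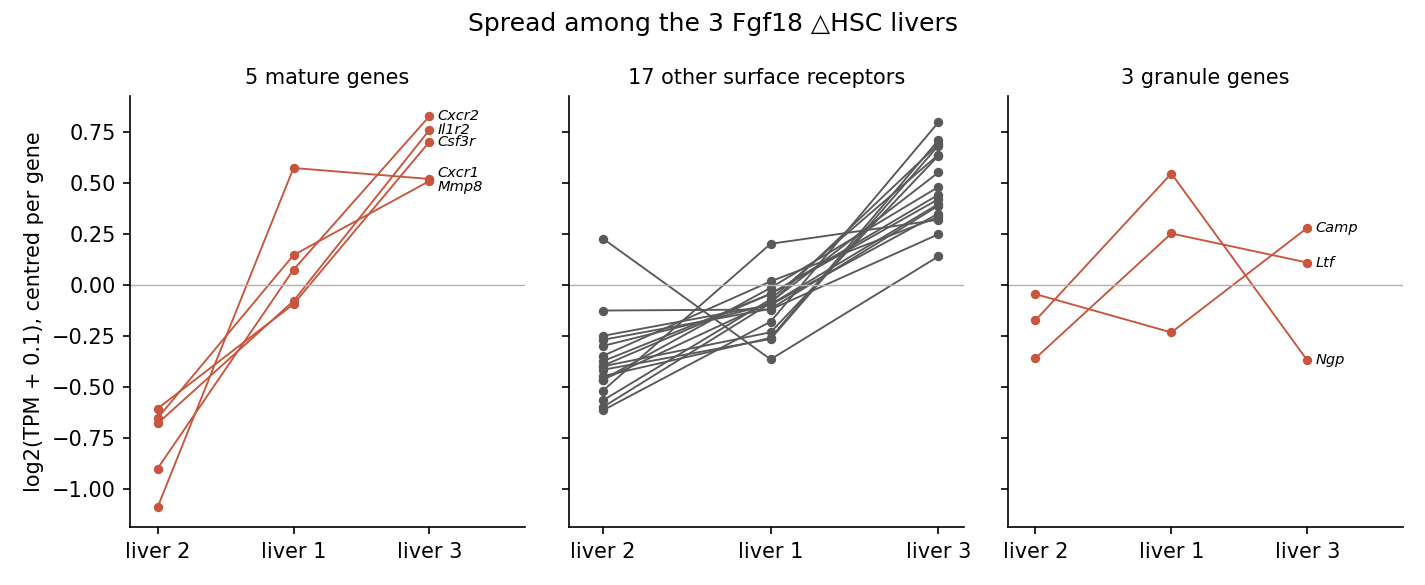
log2(TPM + 0.1) in the 3 Fgf18 △HSC livers, centred on the mean of each gene over them, with 1 line per gene and the livers drawn in the order 2, 1, 3. The lines of 4 of the 5 mature neutrophil genes and of 16 of 17 other surface receptors climb at each step from liver 2 over liver 1 to liver 3, and none of the 3 granule genes does.

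Other genes of neutrophil function were then taken from lists by role. Over all 3201 genes, 41.6% passed the threshold as higher in Fgf18 △HSC livers and 30.0% as lower, with a median log2 difference of 0.88. The threshold was a limma adjusted p under 0.05 and an absolute log2 difference above 1. All these genes had already been selected by the authors on this contrast in these livers. The adjusted p-values given here therefore describe the differences and are not independent evidence that a gene differs. The lists of primary granule, later granule, cytosolic, receptor, activation and oxidase genes together held 107 genes besides the 8, of which 37 had values. Of these 37, 21 rose, 10 fell and 6 did not pass, with a median of 1.12. In rescaled livers 4 rose and 11 fell, and with a pseudocount of 1 in place of 0.1 there were 9 of each, so the balance between directions depended on the scale. Over all 3201 genes 353 were higher and 1113 lower in rescaled livers, against 1333 and 961 before.

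Of 16 other genes of the later granules, 9 had values, and they too went in both directions, with 5 higher, 2 lower and 2 not past the threshold. Lcn2 (lipocalin-2, which withholds iron from bacteria) fell from 458 ± 50.1 to 128 ± 21.4 TPM (SD, n = 3 each), a log2 difference of -1.84 (standard error 0.15, limma adjusted p = 3.55e-05). Hp (haptoglobin, which binds free haemoglobin) fell by 1.20 on the log2 scale (limma adjusted p = 0.000129). Both are also made in large amounts by hepatocytes in the acute phase. Their mean levels here, 128 TPM or more in either genotype, were far above those of any of the 8 genes.
Higher were Chil3, Lyz2, Itgam, Adam8 and Olfm4. Chil3, a chitinase-like protein of neutrophils and macrophages, rose from 1.03 ± 0.257 to 6.28 ± 3.45 TPM (SD, n = 3 each), a log2 difference of 2.37 (standard error 0.37, limma adjusted p = 0.000595). Lyz2, a lysozyme of the same cells, rose by 1.62 (limma adjusted p = 0.000105) and Itgam, an integrin subunit of myeloid cells, by 1.55 (limma adjusted p = 0.00314). In rescaled livers Chil3 alone of these 5 passed, at 1.54, and Lyz2, Itgam, Adam8 and Olfm4 were at 0.75, 0.92, 0.35 and 0.51. Reads of Chil3 could be shared with its close copy Chil4. Pglyrp1, at -0.92, and Mmp25, at 0.85, did not pass the limit on the fold. None of the 8 listed genes of the primary granules, such as Mpo and Elane, was analysed here.

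Of 38 other surface receptors, 17 had values, and 13 rose, 2 fell and 2 did not pass. Cxcr4, which holds neutrophils in the marrow and marks aged ones in the blood, rose from 0.470 ± 0.0414 to 3.03 ± 0.729 TPM (SD, n = 3 each), a log2 difference of 2.44 (standard error 0.21, limma adjusted p = 4.42e-05). Ccr1, a chemokine receptor, rose by 1.58 (limma adjusted p = 0.00215). Tlr2, a receptor for bacterial lipopeptides, fell by 1.39 (limma adjusted p = 0.000898) and Ccrl2, a non-signaling chemerin receptor, by 1.27 (limma adjusted p = 0.000629). Ptafr and C5ar1, at 0.90 and 0.94, stayed under the limit on the fold. Many of these receptors are shared with monocytes.
In rescaled livers only 2 of the 13 higher receptors still passed, Cxcr4 at 1.66 and C5ar2, a complement C5a receptor, at 1.06, and Ccr1 was at 0.74.

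Of 8 attractant and growth factor genes with values, 5 fell, and ligands of Cxcr2, Csf3r and Il1r2 were among them. Cxcl1 and Cxcl2, which act on Cxcr2, fell from 420 ± 35.4 to 83.8 ± 11.3 TPM and from 56.4 ± 3.29 to 13.8 ± 6.11 TPM (SD, n = 3 each), with log2 differences of -2.33 (standard error 0.13, limma adjusted p = 1.28e-05) and -2.12 (standard error 0.29, limma adjusted p = 0.000276). Csf3, the gene of G-CSF and so the ligand of Csf3r, fell from 10.6 ± 1.28 to 3.22 ± 1.58 TPM (SD, n = 3 each; log2 difference -1.82, limma adjusted p = 0.00158). Il1a, whose product Il1r2 binds, fell by 1.45 (limma adjusted p = 0.000674), and Il6, a cytokine of the acute phase, by 2.20 (limma adjusted p = 0.00098).
The exceptions among the 8 attractant and growth factor genes with values, of 18 listed, were Ppbp, Cxcl5 and Kitl. Ppbp, a platelet chemokine that also acts on CXCR2, rose by 1.76 (limma adjusted p = 0.000105), and Cxcl5, another such ligand, by 1.41 (limma adjusted p = 0.000877). Kitl, stem cell factor, rose by 1.10 (limma adjusted p = 0.000986). None of these 3 passed in rescaled livers, at 0.95, 0.63 and 0.32.

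Of 25 genes of activated neutrophils, 9 had values, with 2 higher, 6 lower and 1, Osm, not past the threshold (log2 difference 1.01, limma adjusted p = 0.0512). The chemokine genes Ccl4 and Ccl3 fell by 2.65 and 1.83 (limma adjusted p = 2.4e-05 and 8.7e-05). The interferon-responsive genes Slfn1 and Slfn4 rose by 1.92 and 1.44 (limma adjusted p = 0.0045 and 0.00732), and Slfn4 did not pass without Fgf18 △HSC liver 3 or in rescaled livers. Of 4 adhesion genes with values, Icam1, the endothelial ligand for neutrophil integrins, fell by 1.80 (limma adjusted p = 9.39e-05), and Pecam1, a junction protein of endothelium, rose by 1.79 (limma adjusted p = 5.86e-05; 0.96 in rescaled livers). Of 14 cytosolic neutrophil proteins, only Alox5ap, a partner of 5-lipoxygenase, had values, and at 0.97 it did not pass.

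Of 14 transcription factors of granulocytes, 7 had values, and 3 C/EBP genes fell while none rose. Cebpe, which encodes the C/EBP epsilon named above, fell from 4.28 ± 0.545 to 1.86 ± 0.304 TPM (SD, n = 3 each), a log2 difference of -1.17 (standard error 0.17, limma adjusted p = 0.000444). It did not pass with a pseudocount of 1, at -0.89. Cebpb and Cebpd, both also acute-phase factors of hepatocytes, fell by 1.35 and 1.21 (limma adjusted p = 4.72e-05 and 5e-05). Cebpa, at -0.99, and Klf4, Lyl1 and Gata2, which were higher by 0.94 or more, did not pass. Which cells of the liver held these transcripts cannot be told from the data, and Cebpe, at 4.28 TPM, was above Camp and Ltf in the control livers.

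**Figure D4:**
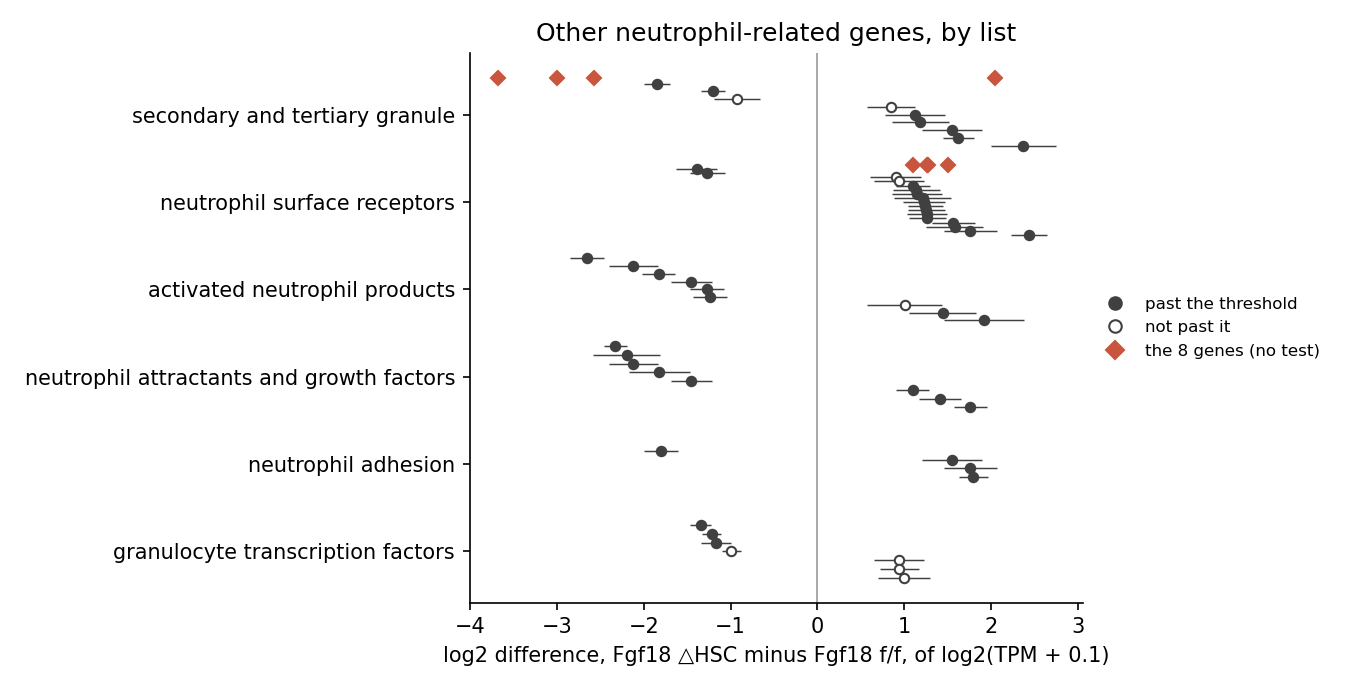
Log2 difference between Fgf18 △HSC and control livers for neutrophil-related genes by list, as points with bars of 1 limma standard error, filled where past the threshold (adjusted p under 0.05 and above 1 in size), and red diamonds for the 8 genes with no test, Mmp8 among the granule genes. Receptors stand mostly to the right, with 13 of 17 higher, and attractants and transcription factors to the left, with 5 of 8 and 3 of 7 lower. In rescaled livers only 2 of the 13 receptors still passed, and all 5 and 3 of the lower ones did. That rescaling shifted the differences of all genes by a median of -0.74. Over all genes the higher ones went from 1333 to 353 and the lower ones from 961 to 1113, so nothing is read from this contrast.

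Markers of other blood and liver cells also differed between the genotypes, and their part in the results above was not tested. Erythroid genes summed to 71.9 to 117 TPM in control livers and to 397 to 539 TPM in Fgf18 △HSC livers. Of 7 with values, 5 rose, such as Hba-a1 and Hbb-bs, each by 2.36 (limma adjusted p = 7.08e-05 and 3.07e-05), 1 fell, Klf1, and 1, Epb42, was listed at 0 in every control liver and did not pass. The alpha globin copies are near-identical, as are the beta ones, and could share reads. Platelet genes summed to 1.85 to 2.40 TPM against 5.31 to 6.29 TPM, with 2 of 3 higher (Ppbp, and Itgb3 by 1.77) and F2rl2 lower by 1.28. The sums of both lists did not overlap between the genotypes, but neither did the values of 96.3% of all 3201 genes, so nothing is read from it.
Monocyte and macrophage genes summed to 28.2 to 32.8 TPM against 44.4 to 63.4 TPM, with 8 of 12 higher, 2 lower and 2 not past the threshold. F13a1 and Ccr2, genes of monocytes, rose by 2.64 and 1.90 (limma adjusted p = 0.000148 and 0.00103), and Spic, a transcription factor of resident macrophages, fell by 2.25 (limma adjusted p = 6.6e-05). Other macrophage genes of the list went the opposite way to Spic: Cd68, C1qa and C1qc rose by 1.80, 1.32 and 1.17 (limma adjusted p = 5.23e-05, 0.000235 and 0.0024), and Adgre1, at 0.82, did not pass. In rescaled livers 3 of the 8 higher genes still passed, Ccr2, Chil3 and F13a1. The B and plasma cell genes Jchain and Ighm rose by 2.12 and 1.57 (limma adjusted p = 0.000272 and 0.000367), and the lymphocyte protease genes Gzmb and Gzma fell by 1.80 and 1.38 (limma adjusted p = 0.000254 and 0.0138). Of the dividing-cell list only Mki67 had values, and it fell by 1.23 (limma adjusted p = 0.000834). Cyp2e1 and Glul, of hepatocytes, fell by 1.67 and 1.28 (limma adjusted p = 6.6e-05 and 2.4e-05). Other defining markers of these cells, such as Alas2, Pf4, Ly6c2, Clec4f, Cd79a, Cd3e and Alb, were not analysed here.

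Among 1419 other genes that reached 1 TPM on average, a few followed the mean profile of each gene group over the 6 livers. Nearness was taken as the root mean square distance of log2(TPM + 0.1) values centred per gene. Nearest to the granule genes were Ppp1r3g, a regulatory subunit of protein phosphatase 1 in glycogen metabolism (0.12), Nrep (0.12) and Inmt, a methyltransferase (0.16), all closer than Camp (0.23), Ltf (0.27) and Ngp (0.37) were themselves. Ppp1r3g was at 11.0 ± 0.749 TPM in control livers and 1.29 ± 0.372 TPM in Fgf18 △HSC livers, and Inmt at 461 ± 17.6 and 62.5 ± 6.66 TPM (SD, n = 3 each).
Nearest to the mature neutrophil genes were Cd33, a myeloid sialic acid receptor (0.095), Emilin2, an extracellular matrix protein (0.10), and Itga3, an integrin subunit (0.13). Cd33 was at 1.71, 1.59 and 1.29 TPM in control livers and at 4.31, 2.54 and 6.13 TPM in Fgf18 △HSC livers.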

How the data were processed

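RNA-seq values of 6 livers, 3 per genotype, were used as the authors deposited them. The submitters' processing notes name cutadapt 2.5, HISAT2 2.1.0 and featureCounts 1.6.3, and the methods name GRCm38 and DESeq2. The methods also name a stranded library kit and an alignment that used strand. Whether the counting used strand was not given in the sources used here. The unit of the deposited values is not written. The values the authors deposited, made from reads counted per gene after alignment, were taken as TPM because, multiplied by joined exon length (GENCODE M21, 3196 of 3201 genes), they gave whole reads in all 6 livers for 2933 genes. A scaling of another kind per library cannot be told apart from TPM, and library totals are unknown. The deposited log2 fold changes and p-values are the authors' own comparison and served only to test the table's filter: the smallest absolute log2 fold change was 1.00, every p-value was under 0.05, and 575 adjusted p-values were at least 0.05.

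Values were analysed as log2(TPM + 0.1), a scale that understates the change of low genes. All 3201 genes were fitted with limma 3.58.1 under R 4.3.3, using eBayes with a trend, no filter on low values and no block. The threshold was an adjusted p (Benjamini-Hochberg) under 0.05 with a log2 difference above 1 in size. The adjustment ran over genes already selected on this contrast, so it does not hold the share of false calls at its nominal level. The fit was tested on simulated data in which genes had not been selected on the contrast. That test therefore does not cover adjusted p-values from a filtered set such as this one. Ratios of summed reads have exact 95% Clopper-Pearson intervals, computed in Python 3.11.15.

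The 8 genes and all lists were chosen with earlier results of these data known. Named besides the 8 were up to 3 genes per list and direction with the largest differences past the threshold, the 3 nearest profiles per gene group at 1 TPM or more, and chromosomal neighbours. Csf3, Il1a and genes named to spell out a small count or a cell marker lie outside this rule and were chosen after their values were seen. Alternatives were pseudocounts of 1 and 0.01, a minimum mean of 1 TPM, rescaled livers, no trend, no fold limit, a replicate block, each liver left out, Mmp8 moved to the granule genes, summed TPM and, added after seeing the data, limma-voom on recovered reads and leaving out Cxcr1. Some of the genes named by the rule are not reported here.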

Additional observations from a re-analysis of the deposited data

How the results depend on the processing

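The sign of the difference of each of the 8 genes and of each of the 43 other genes named by rule was the same under every alternative that gave it a value. The granule difference of -3.09 became -1.57 with a pseudocount of 1, -3.69 with 0.01, -3.84 in rescaled livers and -1.80 with Mmp8 counted there. The mature difference of 1.44 became 0.70 in rescaled livers. The difference between the gene groups, -4.52, became -2.63 and -5.58 with pseudocounts of 1 and 0.01, -3.09 with Mmp8 moved and -5.28 from summed TPM. With each liver left out in turn these 3 ran from -3.18 to -2.99, from 1.11 to 1.83 and from -4.82 to -4.20. Of all genes, 1333 were higher, and 266 with a pseudocount of 1, 522 with a mean of at least 1 TPM, 353 in rescaled livers and 2005 with no fold limit. Lower were 961, and 566 with a pseudocount of 1. Of those past the threshold 58.1% were higher, against 24.1% in rescaled livers, 32.0% and 65.6% with pseudocounts of 1 and 0.01, and 66.5% by limma-voom. Of the 37 other neutrophil genes 21 were higher, and 9 with a pseudocount of 1 and 4 in rescaled livers. Leaving livers out gave 1204 to 1377 higher and 907 to 975 lower of all genes, and 15 to 25 higher and 10 to 11 lower of the 37. Of the 43 named genes, 12 no longer passed in rescaled livers (among them Ccr1, Cxcl5, Ighm, Itgam, Itgb3, Kitl, Lyz2, Pecam1, Ppbp and Slfn4) and 12 with a pseudocount of 1 (among them Ccr2, Cebpe, Cxcl5, F2rl2, Gzma, Gzmb, Itgam, Jchain, Kitl, Klf1 and Mki67). Without Fgf18 △HSC liver 3, Kitl, Klf1 and Slfn4 did not pass, without liver 2 of that genotype Gzma, and without control liver 3 Gzma and Klf1. Apart from what the alternatives' own construction shows, the cause was not tested. With the replicate block 1337 genes were higher and 963 lower, 22 and 10 among the 37. The numbers name different animals, their same-numbered deviations correlated at 0.06, 0.01 and 0.03, and not every liver correlated best with its own number, so they do not pair the livers. Camp and Cxcr1, with at most 2 reads in the livers of 1 genotype, are limited by depth.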

Other observations

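Mmp8 lies in a cluster of matrix metalloproteinase genes, and Mmp7, Mmp10 and Mmp3 were higher with it after deletion of Fgf18. Within 500 kb on each side of it, 7 other genes had values, of which 5 rose and 2 fell, all past the threshold (limma), against 41.6% and 30.0% of all genes. Mmp7 (matrilysin, mostly of epithelia) was at 0.145 ± 0.0707 TPM in control livers and at 2.64 ± 1.41 TPM with the deletion (SD, n = 3 each), on 2, 5 and 3 against 82, 17 and 67 reads. It overlaps AV064505, an antisense gene that was also higher, with 1, 1 and 0 against 7, 7 and 18 reads, and reads of the 2 cannot be told apart where the counting did not use strand. Mmp10, a stromelysin, had 1, 0 and 0 against 6, 9 and 8 reads. Mmp3, another stromelysin, had 2, 1 and 13 against 16, 20 and 11 reads, and its TPM values overlapped between the genotypes. Birc2 and Birc3, inhibitors of apoptosis in the same stretch, were lower, at 16.2 ± 0.306 against 6.70 ± 0.486 TPM and 20.8 ± 0.674 against 7.74 ± 2.32 TPM (SD, n = 3 each). Of the 7 neighbours only Birc2 and Birc3 had the order of Mmp8 among the Fgf18 △HSC livers, liver 3 above liver 1 above liver 2.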
